A study of Mus musculus with 10 samples.

Results

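The 10 integrin subunits examined here are those that macrophages are known for, 7 alpha chains (Itga4, Itga5, Itga6, Itgav, Itgam, Itgax and Itgal) and 3 beta chains (Itgb1, Itgb2 and Itgb5). They were chosen by name, each read by the probe set that carries its symbol alone, and are 10 of the 19938 genes measured. Integrins are cell-surface receptors made of 1 alpha and 1 beta chain, and the pairing decides which ligand is bound. The Itgb2 chain, found on leukocytes, pairs with Itgal, Itgam or Itgax and binds ICAM adhesion proteins and complement fragments. Itgb1 pairs with Itga4, Itga5 or Itga6, among others, for VCAM1, fibronectin and laminin, and Itgav pairs with Itgb5 and further beta chains for vitronectin and other proteins with an RGD sequence. The Itgam and Itgb2 pair, complement receptor 3, also takes part in the uptake of particles and is known to bind β-glucan.

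The signal was measured on 10 arrays of immortalized mouse macrophages. The groups were the Toll-like receptor 9 knockout line (TLR9KO, abbreviated KO) with beads (2 arrays), the wild-type B6 line (WT) with beads (3 arrays), the unstimulated KO line (2 arrays) and the unstimulated WT line (3 arrays). The beads were made of β-1,3 glucan, a fungal cell wall sugar, and were given at 20 per cell for 4 h. All cells are immortalized, and each genotype is 1 named line, so line and genotype cannot be told apart. The bracketed array numbers in the titles are all lower in the KO line, and their meaning is not described; if they follow an order of handling, that order and the line cannot be told apart either.

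Values are log2 signals, on which a difference of 1 is a 2-fold change, and array numbers below only name the arrays. Differences come from limma, a linear model fitted to all 19938 genes, and are given with their standard error (SE). A gene passed where its p, adjusted over all genes by Benjamini-Hochberg, was under 0.05. Tlr9 itself read 7.31 to 7.35 in KO bead arrays, against 7.03 to 7.44 in WT bead arrays. Without beads it read 7.44 to 7.62 in KO and 6.91 to 7.32 in WT, a difference of 0.37 ± 0.15 (limma adjusted p = 0.244). The sources do not place its probe set inside or outside the deletion, so it checks nothing. WT bead array 3 stood apart, with a mean Pearson correlation across genes of 0.973 to the other WT bead arrays. For the remaining arrays that mean was 0.985 to 0.997. It read lower than the mean of WT bead arrays 1 and 2 for 9 of the 10 subunits, by amounts between -0.16 for Itgav and -0.88 for Itgam, and higher for Itgal (0.69). Over the 2232 genes with a mean signal over 9, its median difference from those arrays was -0.35, and over the 7076 genes between 5 and 7 it was 0.41.

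The labelled cell type was checked by its markers. All 12 macrophage markers, among them the receptors Csf1r and Adgre1 and the transcription factor Spi1, read above the array median on at least 1 array of every group, except the phagocytic receptor Mertk with beads in KO. No marker of granulocytes (10 measured) or B cells (5 measured) reached the array median on any array. Some markers of other cell types did so on at least 1 array of every group, namely Zbtb46 and Ccr7 (dendritic cells), Col1a1, Col1a2 and Col3a1 (fibroblasts), Krt8 and Krt18 (epithelium) and Pf4 and Treml1 (platelets). Of the macrophage list, 5 genes were higher and 1, Mertk, lower in KO in both comparisons of the lines. Its 12 log2 signals summed to 126.7 to 128.9 in KO bead arrays against 118.6 to 124.6 in WT bead arrays, and to 128.2 to 129.6 in unstimulated KO against 121.8 to 122.8 in unstimulated WT, and its part in the integrin differences was not tested. On the megakaryocyte and platelet list, Pf4 was the 1 gene of 6 that passed (1.92 ± 0.22 with beads and 2.10 ± 0.22 without, KO minus WT), while its integrin Itga2b did not. Kdr was the 1 gene of 8 that passed on the epithelial and endothelial list (1.03 ± 0.12 and 0.80 ± 0.12). No marker of T and NK cells (7 measured), dendritic cells (6) or fibroblasts and stroma (8) passed in either comparison of the lines. In RNA from whole cultures, fewer cells of a type and less RNA per cell cannot be told apart.

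The first question was how the subunits differ between the lines. Itga6, Itga5, Itgav and Itgb5 were higher in the KO line both with and without beads, and none of the 10 was lower. With beads 4 of 10 passed, against 3.82% of all genes higher, 3.4% lower and 7.22% in either direction. Without beads the same 4 subunits passed, against 3.79% of all genes higher, 4.46% lower and 8.25% in either direction. The median over the 10 subunits was 0.47 with beads and 0.44 without, beside -0.011 and 0.017 over all genes. The value with beads depended on WT bead array 3. It lies between Itgb2 (0.30) and Itgam (0.64), which were at 0.17 and 0.35 when that array was left out. Over the 12 macrophage markers the median was 0.42 with beads and 0.52 without, with 5 markers higher and 1 lower in each comparison. A median of this size was therefore not particular to the integrin subunits. With beads the KO arrays lay wholly above the WT arrays for 7 of 10 subunits, as they did for 11.3% of all genes (12.3% lay wholly below, 23.6% either way). Without beads they did so for 8 of 10, against 17.7% of all genes (21.1% below, 38.8% either way). For no subunit did the KO arrays lie wholly below.

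**Figure D1:**
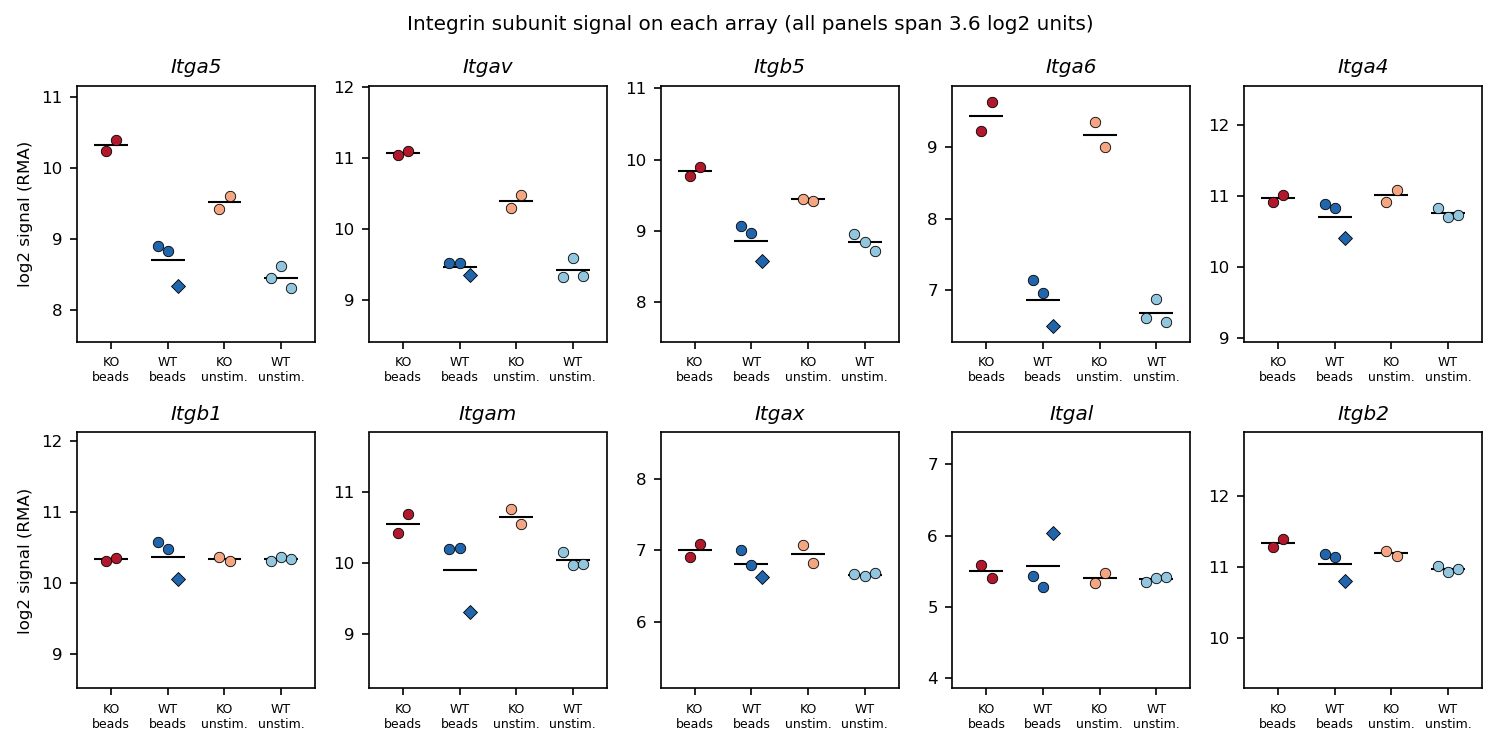
Log2 signal (RMA) of the 10 integrin subunits on each of the 10 arrays, by group, with a line at the group mean. Points are arrays (2 for each KO group, 3 for each WT group), the diamond is WT bead array 3, and every panel spans the same height; Itga6 shows the widest gap between the lines and Itgb1 the groups at one level.

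The 5′ ends of the genes that differed are given for reference. Promoter sequences (250 bases before and 50 after the start of transcription, RefSeq, GRCm38.p6, in the direction of transcription) were at hand for 7 of the 10 subunits. Itga6, Itgal and Itgb2 had no entry. The promoters of the 3 passing subunits with an entry, and that of Itgam, a leukocyte subunit that did not pass, are shown so that they can be read side by side. Capitals mark a GC box (GGGCGG) or a GAGGAA core, the letters around which the myeloid factor PU.1 is known to bind, on either strand. Itga5 lies on chr15:103366742-103367041 (minus strand), Itgav on chr2:83724147-83724446 (plus strand), Itgb5 on chr16:33829415-33829714 (plus strand) and Itgam on chr7:128062390-128062689 (plus strand).
Itga5: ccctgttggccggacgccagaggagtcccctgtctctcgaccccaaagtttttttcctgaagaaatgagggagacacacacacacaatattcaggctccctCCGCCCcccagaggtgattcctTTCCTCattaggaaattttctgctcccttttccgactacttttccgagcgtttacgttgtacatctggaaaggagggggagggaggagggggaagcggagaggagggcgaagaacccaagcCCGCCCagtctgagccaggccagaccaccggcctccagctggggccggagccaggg
Itgav: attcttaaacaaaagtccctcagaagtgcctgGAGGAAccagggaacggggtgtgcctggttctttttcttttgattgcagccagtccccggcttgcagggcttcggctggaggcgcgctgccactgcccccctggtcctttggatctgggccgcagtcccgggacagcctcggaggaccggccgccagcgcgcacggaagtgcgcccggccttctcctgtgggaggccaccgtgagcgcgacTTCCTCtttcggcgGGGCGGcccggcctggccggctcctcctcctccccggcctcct
Itgb5: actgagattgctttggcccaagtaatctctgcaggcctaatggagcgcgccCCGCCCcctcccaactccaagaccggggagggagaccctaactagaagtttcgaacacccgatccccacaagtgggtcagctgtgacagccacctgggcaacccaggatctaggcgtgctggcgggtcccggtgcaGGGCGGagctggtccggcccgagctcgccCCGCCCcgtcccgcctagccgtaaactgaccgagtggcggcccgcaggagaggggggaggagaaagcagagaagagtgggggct
Itgam: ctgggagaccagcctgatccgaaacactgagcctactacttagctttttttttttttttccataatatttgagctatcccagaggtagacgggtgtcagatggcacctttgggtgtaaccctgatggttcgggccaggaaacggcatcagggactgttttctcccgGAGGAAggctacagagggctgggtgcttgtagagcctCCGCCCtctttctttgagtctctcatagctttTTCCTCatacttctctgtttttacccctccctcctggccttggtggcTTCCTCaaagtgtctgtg

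A GC box stood in 6 of the 7 promoters (all but Itgax) and in 35.7% of the 32851 promoters of the same length. A GAGGAA core stood in 4 of 7 (Itga5, Itgav, Itgam and Itgb1) and in 28.3% of all. It overlapped no GC box in the 4 promoters shown, where Itgam held 3 copies, Itgav 2, Itga5 1 and Itgb5 none. The AP-1 motif TGANTCA was found in 1 of 7, that of Itgax, and in 7.81% of all promoters. The interferon-stimulated response element (3.44% of all) and the kappaB site of NF-kappaB (0.411%) were found in none of the 7. These are matches of letters in a short window and say nothing of binding.

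Itga6, the laminin-binding alpha chain, had the widest difference. Its signal was 9.23 and 9.64 in KO bead arrays, against 7.13, 6.95 and 6.49 in WT bead arrays. Without beads it was 9.36 and 9.00 in KO arrays, against 6.60, 6.87 and 6.54 in WT arrays. The groups lay 2.10 apart with beads and 2.13 apart without, and in each line the bead and unstimulated arrays overlapped. The KO line was 5.97-fold higher with beads (log2 2.58 ± 0.21, SE; limma adjusted p = 8.55e-05) and 5.70-fold higher without (2.51 ± 0.21; limma adjusted p = 9.85e-05). With WT bead array 3 left out, the difference with beads was 2.39. Itga6 passed under all 19 processing alternatives in both comparisons. Its WT signals stood at percentiles 53.5 to 63.3 of their arrays with beads and 56.5 to 61.6 without. No detection calls are given, so how far these WT signals lie above background is unknown.

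Itga5, the alpha chain of the fibronectin receptor, came next with beads. It read 10.24 and 10.40 in KO bead arrays, against 8.91, 8.84 and 8.34 in WT bead arrays. Without beads it read 9.42 and 9.61 in KO arrays, against 8.46, 8.62 and 8.31 in WT arrays. The 4 group means ran in the order KO with beads, unstimulated KO, WT with beads and unstimulated WT, and only the WT groups overlapped. KO was 3.08-fold higher with beads (1.62 ± 0.18; limma adjusted p = 4.58e-04) and 2.08-fold higher without (1.05 ± 0.18; limma adjusted p = 0.00545). With WT bead array 3 left out, the difference with beads was 1.44. The call without beads ended after centring each array on its median (1.01, adjusted p = 0.0808) and without unstimulated KO array 2 (0.96, adjusted p = 0.0713); over the alternatives its adjusted p ran from 2.83e-06 to 0.0808.

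Itgav, the alpha chain of the vitronectin receptors, showed the same order of groups. It read 11.04 and 11.10 in KO bead arrays, against 9.53, 9.53 and 9.36 in WT bead arrays. Unstimulated, it read 10.30 and 10.48 in KO arrays, against 9.33, 9.59 and 9.34 in WT arrays. Every KO array was above every WT array, and the bead and unstimulated arrays of KO did not overlap. KO was 3.03-fold higher with beads (1.60 ± 0.12; limma adjusted p = 3.63e-05) and 1.96-fold higher without (0.97 ± 0.12; limma adjusted p = 7.62e-04), under all 19 alternatives. With WT bead array 3 left out, the difference with beads was 1.54.

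Itgb5, a beta chain that pairs with Itgav, differed less. It read 9.77 and 9.90 in KO bead arrays, against 9.06, 8.96 and 8.57 in WT bead arrays, a 1.96-fold difference (0.97 ± 0.14; limma adjusted p = 0.00308). Unstimulated, it read 9.45 and 9.42 in KO arrays, against 8.95, 8.84 and 8.72 in WT arrays, a 1.52-fold difference (0.60 ± 0.14; limma adjusted p = 0.0332). The KO arrays were again wholly above the WT arrays, but these calls were less steady. With beads the call ended after centring on the median (0.95, adjusted p = 0.0565) and when only the KO and WT bead arrays were fitted (0.97, adjusted p = 0.0636). Without beads it ended after centring on the median (0.56, adjusted p = 0.310) and without any 1 of 7 arrays, all but the WT bead arrays (0.54 to 0.66, adjusted p = 0.0562 to 0.204).

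**Figure D2:**
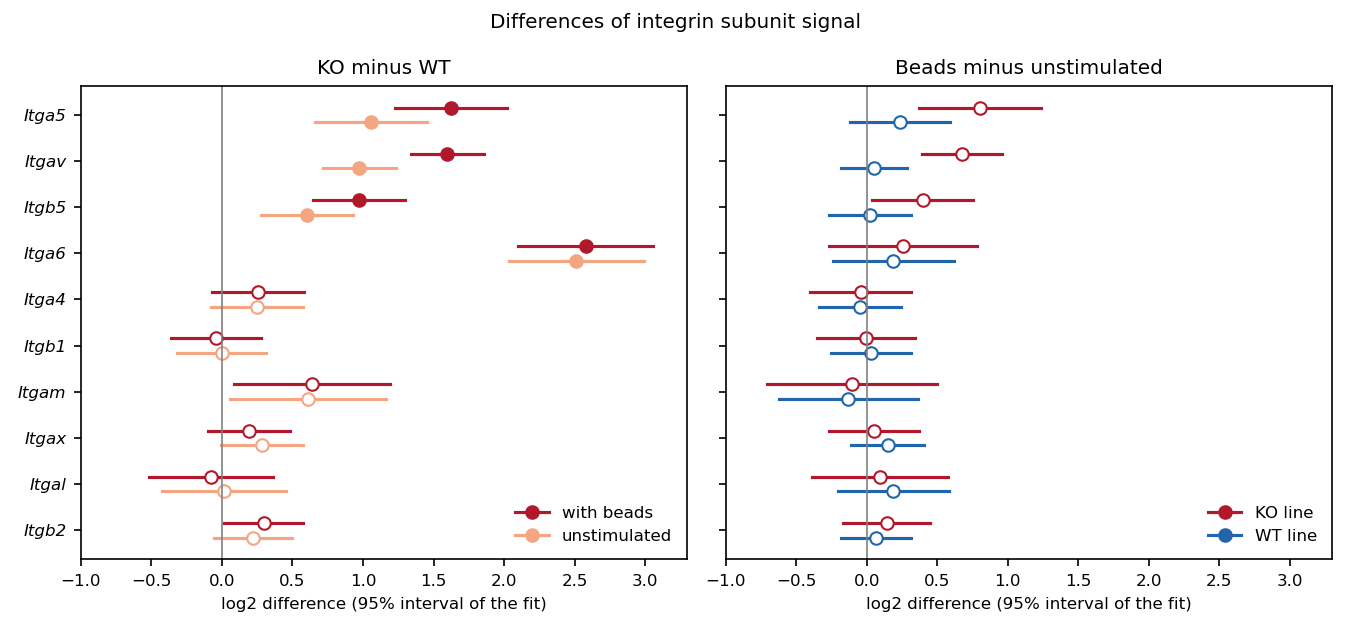
Log2 differences of the 10 integrin subunits with the 95% interval of the limma fit; left, KO minus WT with beads and unstimulated; right, beads minus unstimulated in the KO and the WT line. Filled points passed at an adjusted p under 0.05: Itga5, Itgav, Itgb5 and Itga6 between the lines, and none for the beads.

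The other alpha and beta chains of the Itgb1 family did not pass. Itgb1, the common beta chain, read 10.31 and 10.35 in KO bead arrays against 10.57, 10.47 and 10.06 in WT bead arrays, and 10.37 and 10.30 in unstimulated KO against 10.31, 10.37 and 10.33 in unstimulated WT. All 4 groups overlapped, with differences of -0.04 (95% interval -0.36 to 0.28; -0.20 without WT bead array 3) with beads and -0.0033 (-0.32 to 0.31) without. Itga4, whose pair with Itgb1 binds VCAM1 and fibronectin, read 10.92 and 11.02 in KO bead arrays and 10.89, 10.83 and 10.41 in WT bead arrays. Without beads it read 10.92 and 11.09 in KO arrays and 10.84, 10.71 and 10.73 in WT arrays. Its differences were 0.26 (-0.07 to 0.58; 0.11 without WT bead array 3) with beads and 0.25 (-0.08 to 0.58) without, and the gap between the lines was 0.03 and 0.08.

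Of the leukocyte integrins, Itgam, the alpha chain of complement receptor 3, came nearest to passing. It read 10.42 and 10.69 in KO bead arrays against 10.20, 10.21 and 9.32 in WT bead arrays. Without beads it read 10.76 and 10.55 in KO arrays against 10.16, 9.98 and 9.99 in WT arrays. The lines did not overlap, and WT bead array 3 lay lowest of all 10 arrays. The differences were 0.64 ± 0.24 with beads (limma adjusted p = 0.205) and 0.61 ± 0.24 without (limma adjusted p = 0.214). Without WT bead array 3 the difference with beads was 0.35 (adjusted p = 0.0612), and that without beads was again 0.61 and passed (adjusted p = 0.00241). Over the alternatives its adjusted p ran from 0.0275 to 0.725 with beads and from 7.72e-04 to 0.683 without.

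Itgb2, the beta chain of these receptors, read 11.28 and 11.39 in KO bead arrays against 11.19, 11.14 and 10.80 in WT bead arrays, and 11.23 and 11.16 in unstimulated KO against 11.02, 10.93 and 10.97 in unstimulated WT. KO lay above WT with beads and without, although unstimulated KO overlapped WT with beads. The differences of 0.30 ± 0.12 with beads (limma adjusted p = 0.269; 0.17 without WT bead array 3) and 0.22 ± 0.12 without (limma adjusted p = 0.467) did not pass. Itgax, the CD11c chain that dendritic cells carry too, read 6.91 and 7.09 in KO bead arrays against 7.01, 6.79 and 6.63 in WT bead arrays, and 7.07 and 6.83 in unstimulated KO against 6.67, 6.64 and 6.68 in unstimulated WT. Its differences were 0.19 (-0.10 to 0.48; 0.10 without WT bead array 3) with beads and 0.29 (-0.0036 to 0.58) without. Itgal, the alpha chain of LFA-1, read below the array median on all 10 arrays, at 5.40 to 5.59 in KO bead arrays, 5.27 to 6.03 in WT bead arrays, 5.33 to 5.47 in unstimulated KO and 5.35 to 5.41 in unstimulated WT. No detection calls are given, so its differences of -0.08 with beads (0.15 without WT bead array 3) and 0.01 without beads are between low signals, and their sign turned under 3 alternatives with beads and 5 without. That of Itgb1 turned under 2 and 5.

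**Figure D3:**
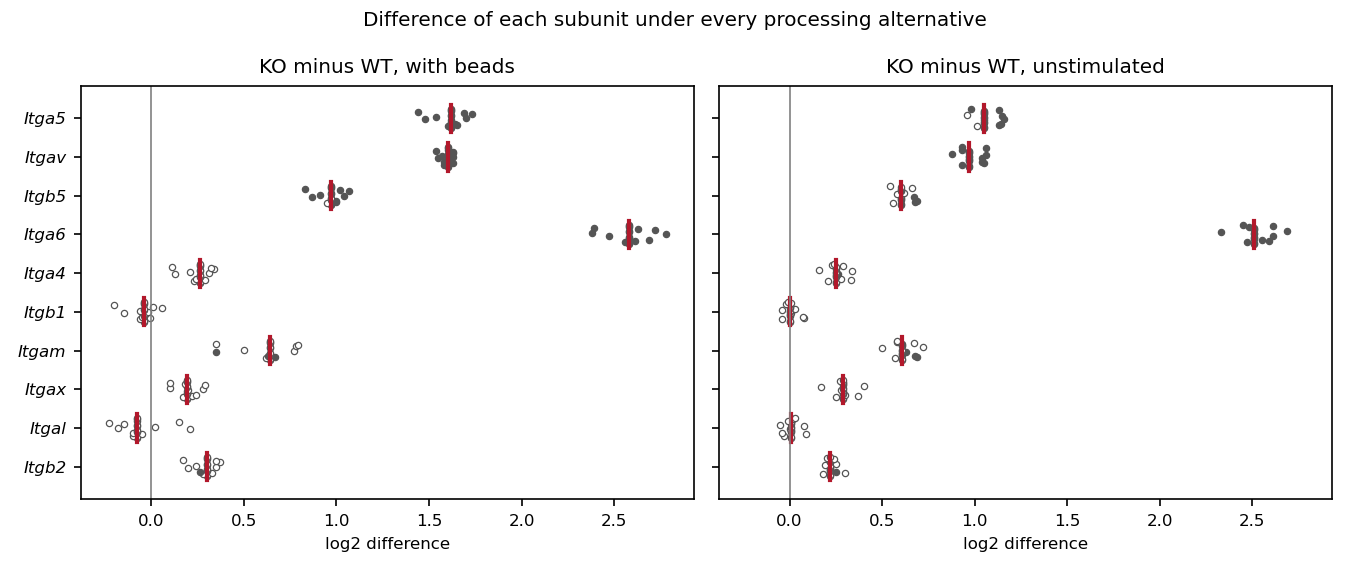
Log2 difference, KO minus WT, of the 10 subunits with beads (left) and unstimulated (right). The red line is the value as reported, each point 1 of 19 processing alternatives, filled where it passed at an adjusted p under 0.05; for Itga6 and Itgav all points are filled in both panels.

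The second question was what the beads did in each line. No subunit passed in either line, and no gene of the 19938 did in limma (0.0% called in each). At an unadjusted p under 0.05, 3 of 10 subunits and 359 genes (1.8%) were called in KO, and 0 of 10 subunits and 167 genes (0.838%) in WT. Itga5, Itgav and Itgb5 were the 3 in KO. Itga5 was 0.80 ± 0.19 higher with beads in KO (95% interval 0.37 to 1.23; limma adjusted p = 0.910) and 0.23 ± 0.16 in WT (-0.12 to 0.59). Itgav was at 0.68 ± 0.13 in KO (0.39 to 0.96; limma adjusted p = 0.673) and 0.05 ± 0.10 in WT (-0.18 to 0.28), and Itgb5 at 0.40 ± 0.16 in KO (0.04 to 0.75; limma adjusted p = 1.0) and 0.02 ± 0.13 in WT (-0.27 to 0.32). The WT values depended on WT bead array 3. Without it they were 0.41 for Itga5, 0.11 for Itgav, 0.17 for Itgb5, 0.37 for Itga6 and 0.16 for Itgam, and none of the 10 passed (limma adjusted p = 0.316 to 0.86).

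The 2 KO bead arrays lay above both unstimulated KO arrays for 4 of 10 subunits, namely these 3 and Itgb2 (0.14 ± 0.14), as they did for 13.2% of all genes (11.2% lay below, 24.4% either way). The gap between the groups was 0.63 for Itga5, 0.55 for Itgav, 0.32 for Itgb5 and 0.05 for Itgb2. In WT the bead and unstimulated arrays overlapped for all 10, and they lay apart for 3.53% of all genes (2.29% higher, 1.24% lower). The Itga5 value in KO passed, narrowly, in the fit without WT bead array 3 (0.80, adjusted p = 0.0497), and that of Itgav with array weights (0.68, adjusted p = 0.0489). The remaining bead differences lay between -0.10 (Itgam) and 0.26 (Itga6) in KO and between -0.13 (Itgam) and 0.19 (Itga6) in WT, each smaller than 2 times its SE.

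The third question was whether the bead responses of the lines differed. The test of that difference passed for none of the 10 subunits and none of 19938 genes (0.0% called in limma; 172 genes, 0.863%, at an unadjusted p under 0.05). Itgav (0.62 ± 0.16, KO response minus WT response; 95% interval 0.26 to 0.99) and Itga5 (0.57 ± 0.25; 0.01 to 1.13) were the 2 subunits with an unadjusted p under 0.05, and both had a limma adjusted p of 1.0. Without WT bead array 3 they were 0.57 and 0.39. For Itgb5 the difference was 0.37 ± 0.20 (-0.09 to 0.83; 0.23 without that array) and for Itga6, 0.07 ± 0.30 (-0.61 to 0.74; -0.12 without it). These values share their unstimulated and bead arrays with the bead responses above and are not further evidence of them.

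The profiles of the passing subunits over the 10 arrays were compared by the root mean square difference of their log2 signals, each centred on its own mean. Itga5 and Itgav lay closest among them (0.137), then Itgav and Itgb5 (0.288) and Itga5 and Itgb5 (0.321). Itga6 lay further off, at 0.631 from Itga5, 0.658 from Itgav and 0.875 from Itgb5. Other protein-coding genes were searched too, leaving out the 10 subunits, predicted genes and genes whose symbols end in Rik. Nearest to Itga5 were Ell2 (0.142), an elongation factor of RNA polymerase II, Apbb2 (0.162) and the calcium-dependent kinase Camk2d (0.184). Camk2d, Apbb2 and the pyrophosphate transporter Ank (0.125 each) were nearest to Itgav. Cd14, a co-receptor for lipopolysaccharide (0.120), the phosphatase Ptpn22 (0.167) and Tm4sf19 (0.171) were nearest to Itga6. Dop1b (0.067), the actin crosslinker Actn1 (0.083) and the cytokine receptor chain Csf2rb2 (0.095) were nearest to Itgb5. The 4 subunits were taken because they passed between the lines, so these distances are a description.

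Of 16 other integrin subunits, all measured, Itgb7 was the 1 that passed, in both comparisons of the lines. That is 6.25% of the list, close to the 7.22% of all genes called with beads and 8.25% without. This beta chain, which pairs with Itga4 or Itgae, read 7.56 and 7.82 in KO bead arrays against 6.50, 6.58 and 6.70 in WT bead arrays. Without beads it read 7.47 and 7.49 in KO arrays against 6.78, 6.59 and 6.74 in WT arrays. The KO arrays lay wholly above, by 1.09 ± 0.11 with beads (limma adjusted p = 3.41e-04) and 0.78 ± 0.11 without (limma adjusted p = 0.00252), in all 19 alternatives. Its partner Itgae, a marker of some lymphocytes and dendritic cells, stayed under the array median on all arrays. Itgb3, which pairs with Itgav on osteoclasts and platelets, read 6.05 to 6.33 in KO bead arrays and 6.02 to 6.44 in WT bead arrays and did not pass, nor did Itgad or Itga2b. The median over the 16 was 0.02 with beads and 0.03 without. Itga1, Itgb6 and Itgb8 read below the 25th percentile on all 10 arrays.

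**Figure D4:**
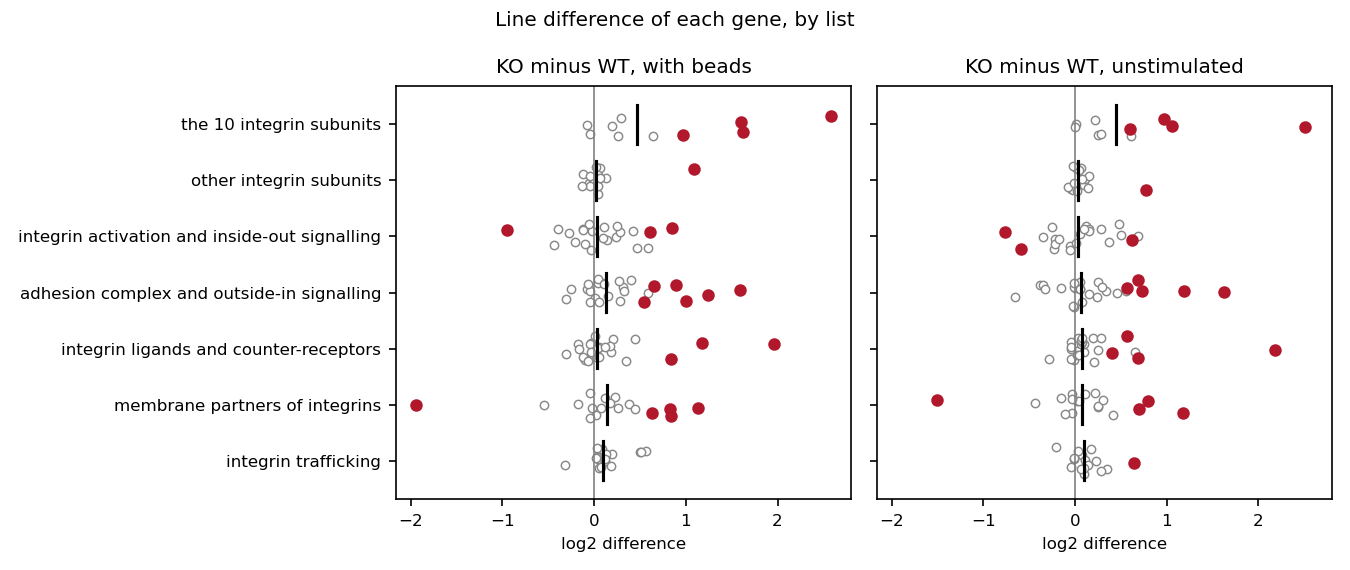
Log2 difference, KO minus WT, of the 10 integrin subunits and of every measured gene of 6 further lists, with beads (left) and unstimulated (right). Filled points passed at an adjusted p under 0.05, and the black line is the list's median. The 10 subunits have medians of 0.47 and 0.44, the other lists 0.02 to 0.14. The macrophage markers, which are not among these lists, have medians of 0.42 with beads and 0.52 unstimulated.

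The genes that work with integrins were counted list by list. Of 26 measured genes of the adhesion complex and outside-in signalling, 6 were higher in KO with beads and none lower, and 5 and none without. That is 23.1% and 19.2% of the list, beside 7.22% and 8.25% of all genes called in either direction (3.82% and 3.79% higher). The kinase Src, which integrins activate, was at 1.59 ± 0.18 with beads and 1.63 ± 0.18 without. Lims2, an adaptor in the complex of integrin-linked kinase (1.24 ± 0.13 and 1.19 ± 0.13), and Actn1, which ties integrins to actin (0.90 ± 0.13 and 0.73 ± 0.13), were higher too. Tns3, a tensin of adhesion sites, was at 1.00 ± 0.14 with beads and 0.57 ± 0.14 without, where it passed in 10 of 19 alternatives. The integrin-linked kinase Ilk was at 0.69 ± 0.13 without beads, and at 0.31 ± 0.13 with beads, where it did not pass (limma adjusted p = 0.276). The medians were 0.13 and 0.07.

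Of 22 measured genes listed for integrin activation, 2 were higher and 1 lower in KO than in WT with beads. Without beads 1 was higher and 2 lower in KO, and 19 did not pass in each comparison. The 3 that passed are 13.6% of the list, beside 7.22% of all genes with beads and 8.25% without. Rassf5, which links the GTPase Rap1 to LFA-1, was lower (-0.95 ± 0.11 with beads and -0.76 ± 0.11 without), and so was Rapgef1, which activates Rap1, without beads (-0.59 ± 0.12). Dok1, which competes with talin for beta chain tails, was higher (0.85 ± 0.13 and 0.62 ± 0.13), and the GTPase Rap1b was higher with beads (0.60 ± 0.15). The medians were 0.04 and 0.03.

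Of 25 measured ligands and counter-receptors, 3 were higher in KO than in WT with beads and 4 without, and none was lower. That is 12.0% and 16.0% of the list, beside the same 7.22% and 8.25% of all genes. Edil3, a secreted protein that binds Itgav integrins through an RGD sequence, was at 1.96 ± 0.15 with beads and 2.18 ± 0.15 without, the laminin chain Lamc1 at 1.18 ± 0.16 and 0.69 ± 0.16, and Mfge8, a bridge between dying cells and Itgav integrins, at 0.83 ± 0.13 and 0.57 ± 0.13. Icam2, a ligand of LFA-1, passed without beads (0.40 ± 0.10). Among 18 membrane partners 4 were higher and 1 lower with beads, and 3 higher and 1 lower without, which is 27.8% and 22.2% of that list. Cd47, which associates with Itgav integrins (1.13 ± 0.13 and 1.18 ± 0.13), the syndecan Sdc4 (0.84 ± 0.09 and 0.70 ± 0.09) and the scavenger receptor Cd36 (0.83 ± 0.21 and 0.80 ± 0.21) were higher. Mertk, which is on the macrophage list too, was lower (-1.94 ± 0.21 and -1.50 ± 0.21). Of 16 integrin trafficking genes none passed with beads, and the recycling GTPase Rab4a was higher without (0.65 ± 0.16). At 0.0% and 6.25%, that list was below the share of all genes called. Some of these calls were not steady: with beads Rap1b passed in 7 of 19 alternatives and Cd36 in 9, and without beads Icam2 passed in 8, Cd36 in 9 and Rab4a in 10. In the bead comparisons of either line, and in their difference, none of the genes on these lists passed.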

How the data were processed

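The authors deposited log2 signal values per probe set, and the submitters' processing notes name RMA. That method subtracts background, makes the arrays' distributions alike and summarises probes. For its version and probe annotation: not given in the sources used here. Per the labels' protocols, 100 ng of total RNA was amplified and 5.5 µg of cDNA was labelled with biotin. The scale follows from the values. Array medians over all 28853 probe sets ran from 5.75 to 6.10, and the standard deviation over genes from 1.75 to 2.00. The arrays' distributions are therefore not alike in the deposited values, and how these were centred stays unknown.

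Of these probe sets 21789 carried 1 symbol in the platform annotation, 1621 several and 5443 none. For 21698 of the 21789 the Entrez ID was matched and gave the symbol used, whether or not it changed. Each of 19938 genes was represented by its single-symbol probe set of highest mean. Each subunit had 1; Itgam's 3 probe sets shared with Rpl35 were left out. A model of 4 group means was fitted to all 10 arrays with limma 3.58.1 in R 4.3.3 (eBayes, 6 residual and 3.23 prior degrees of freedom, two-sided). It was tried on simulated data with independent noise on every array. These held no array-wide shift like that of WT bead array 3, so the trial says nothing of its effect. The 19 alternatives changed centring, normalisation, the eBayes prior, a filter at a mean of 5, the probe set rule, the arrays fitted or their weights, or left out 1 array. The labels name no separate cultures, so p-values measure the spread between arrays, whose small number limits precision. Genes were named by rule: all 10 subunits, the up to 4 largest passing genes per list, and the 3 nearest genes. Zyx and Vasp (both higher in KO than in WT with beads) and Plaur passed between the lines beyond it. Members and lists were chosen with earlier results of these data known.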

Additional observations from a re-analysis of the deposited data

How the results depend on the processing

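No paired analysis was possible because no replicate number in the labels is shared between groups. Of the subunits' values under the alternatives, 907 kept their call, 12 lost it, 20 gained it and 1 reversed. These counts pool the comparisons of the lines, the bead responses and their difference. In the bead responses and their difference no subunit had passed, so a kept call there was one that stayed unpassed. All 12 losses fell on Itga5 and Itgb5 in the comparisons of the lines. Unstimulated, 4 subunits passed, but 2 after centring on the median and 7 with array weights, and 2 to 5 with 1 array left out. With beads they numbered 3 to 6 over all alternatives. In the KO bead response 1 passed with array weights, and 0 to 1 with 1 array left out. In the WT bead response 7 passed with array weights, where Itgam turned from -0.13 to 0.19. Those weights ran from 0.0701 to 12.1, so nearly 1 array stood for the WT bead group. Genes that passed unstimulated (1645) numbered 772 with median centring, 2481 with quantile normalisation, 3262 when only those arrays were fitted, 4451 under array weights, and 681 to 3668 with 1 array left out. With beads (1439) they numbered 734, 2283, 480 and 6083 in the same order, and 597 to 4171. In the KO bead response (0) they were 5 after quantile normalisation, 16 with array weights and 0 to 17 with 1 array left out. They were 9174 with array weights in the WT bead response (0). In the difference of responses (0) they were 9 with array weights and 0 to 1 with 1 array left out. The cause of these changes was not tested.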
